A study of Mus musculus with 36 samples.

Results

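The genes described here encode collagen chains. They were chosen by name alone: protein-coding mouse genes whose symbol consists of Col, a number, the letter a and a number, as in Col6a3. The annotation of the GRCm38 genome held 44 such genes, and the count tables held 37 of them among 17536 genes in either table. Liver had 28 and the epididymal fat depot (white adipose tissue, abbreviated eWAT) had 36, with 27 in both, and Col24a1 was measured in liver only. The 7 genes in neither table were Col2a1, Col9a1, Col9a2, Col10a1, Col11a1, Col19a1 and Col25a1. A gene is in a table only where it exceeded 0.5 counts per 1000000 counts of its library (CPM) in at least 6 of the 18 libraries of that tissue, so the measured genes are not all collagen chain genes.

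RNA came from wild-type C57BL/6 male mice of the F0 generation at 24 weeks of age. All mice ate chow until 6 weeks of age. The LF group then ate a low-fat diet for 18 weeks, the HF group ate what is read here as a high-fat diet for 18 weeks (the protocol note writes HLD), and the HFLF group ate the high-fat diet for 9 weeks and then the low-fat diet for 9 weeks. Liver and eWAT each gave 6 libraries per diet, 36 libraries in all. The labels do not say whether the 6 libraries of a group are separate mice, so p-values measure only the spread between libraries, which may be partly technical. No genetic change, drug or transgene separates the groups; whole tissue was used, in which fewer cells of a type and less RNA per cell cannot be told apart.

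Collagens are proteins in which 3 chains wind into a triple helix, which is built in the endoplasmic reticulum, secreted and assembled outside the cell. Fibrillar collagens (types I, III, V, XI, XXIV and XXVII) form the fibers that give tissue its strength. Type IV collagen forms the sheet of basement membranes, which in fat surround each adipocyte and each vessel. Network collagens (types VIII and X) form hexagonal lattices, and FACIT collagens (such as types XII, XIV and XVI) bind to the surface of fibrils. Type VI collagen forms beaded filaments between cell and matrix, multiplexins (XV and XVIII) sit at basement membranes, and transmembrane collagens (XIII, XVII, XXIII and XXV) span the cell membrane. Collagen deposition around adipocytes, and by stellate cells in liver, is a known feature of fibrosis in obese fat and in diseased liver.

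Libraries held 11.7 to 23.3 M counts in liver and 8.94 to 31.2 M in eWAT (M, 1000000). Adipoq, an adipocyte hormone, was at 806 to 3910 CPM in eWAT and was not in the liver table, and hepatocyte markers summed to 69200 to 98200 CPM in liver, as labelled. In eWAT hepatocyte markers summed to 29.6 to 1020 CPM in LF, 3.54 to 147 CPM in HF and 10.6 to 220 CPM in HFLF. The hepatocyte gene Alb was highest in eWAT LF libraries 5, 3 and 4, at 690, 291 and 183 CPM. Some libraries stood apart. In liver LF libraries 1 to 4, Mt2, a metallothionein induced by stress, was at 326 to 394 CPM, against 0.631 to 10 CPM in every other liver library. In eWAT, LF library 3 had 215 CPM of Crisp1, an epididymal epithelial gene, and 1560 CPM of Myh11, a smooth muscle gene. LF libraries 4 and 5 had 142 and 52.9 CPM of the epithelial gene Epcam, HFLF library 4 had 31.9 CPM, and the other 15 eWAT libraries had at most 6.93 CPM. Prm1, a protamine gene of sperm, was at 107 CPM in HF library 1 and 55.5 CPM in HFLF library 6, against at most 22 CPM in the other 16 eWAT libraries. Results are therefore also given without liver LF libraries 1 to 4, and, for eWAT, without 6 libraries (numbers 3, 4 and 5 of LF, number 1 of HF, numbers 4 and 6 of HFLF), wherever a call changed.

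The 2 tissues held different collagen transcripts. Levels are given as RPKM, reads per kilobase of exon and per 1000000 counts of the library, a scale that allows a rough comparison between genes; the exon lengths are unions over all annotated transcripts of a gene, so levels between genes are approximate. In the eWAT LF libraries, mean levels were highest for the basement membrane chains Col4a1 (234 ± 44.1 RPKM, SD, n = 6) and Col4a2 (201 ± 44.7 RPKM). The fibrillar chain Col5a3 (137 ± 47.5 RPKM), the multiplexin Col15a1 (117 ± 40.1 RPKM), the fibrillar chain Col3a1 (108 ± 16.4 RPKM) and the beaded filament chain Col6a1 (102 ± 44.4 RPKM) came next, and these 4 did not differ beyond their spread. The order depended on diet: in HF the means were 421 RPKM for Col4a1, 394 ± 211 RPKM for Col3a1, 379 RPKM for Col4a2 and 367 RPKM for Col6a1, and in HFLF 264 RPKM for Col4a1, 223 RPKM for Col4a2 and 193 RPKM for Col5a3. In liver one gene stood above all others in each diet, Col18a1, whose C-terminal fragment is endostatin, at 229 ± 27.8 RPKM in LF (SD, n = 6). The next liver gene in each diet was Col5a3, at 20.2 ± 4.23 RPKM in LF, followed there by Col4a1 at 8.82 ± 2.97 RPKM, Col27a1 at 6.73 ± 2.15 RPKM, Col4a2 at 6.35 ± 1.91 RPKM and Col14a1 at 5.01 ± 1.49 RPKM, and these last 4 overlapped. Of the 27 shared genes, 4 had a higher LF mean in liver than in eWAT. They were Col11a2 (0.583 against 0.461 RPKM, within their spread), Col13a1 (1.66 against 0.619 RPKM), Col27a1 (6.73 against 0.840 RPKM) and Col18a1 (229 against 46 RPKM). At the other end, over all 18 libraries of a tissue, Col26a1 in eWAT had a mean of 0.0687 RPKM and Col4a4 in liver 0.0526 RPKM.

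**Figure D1:**
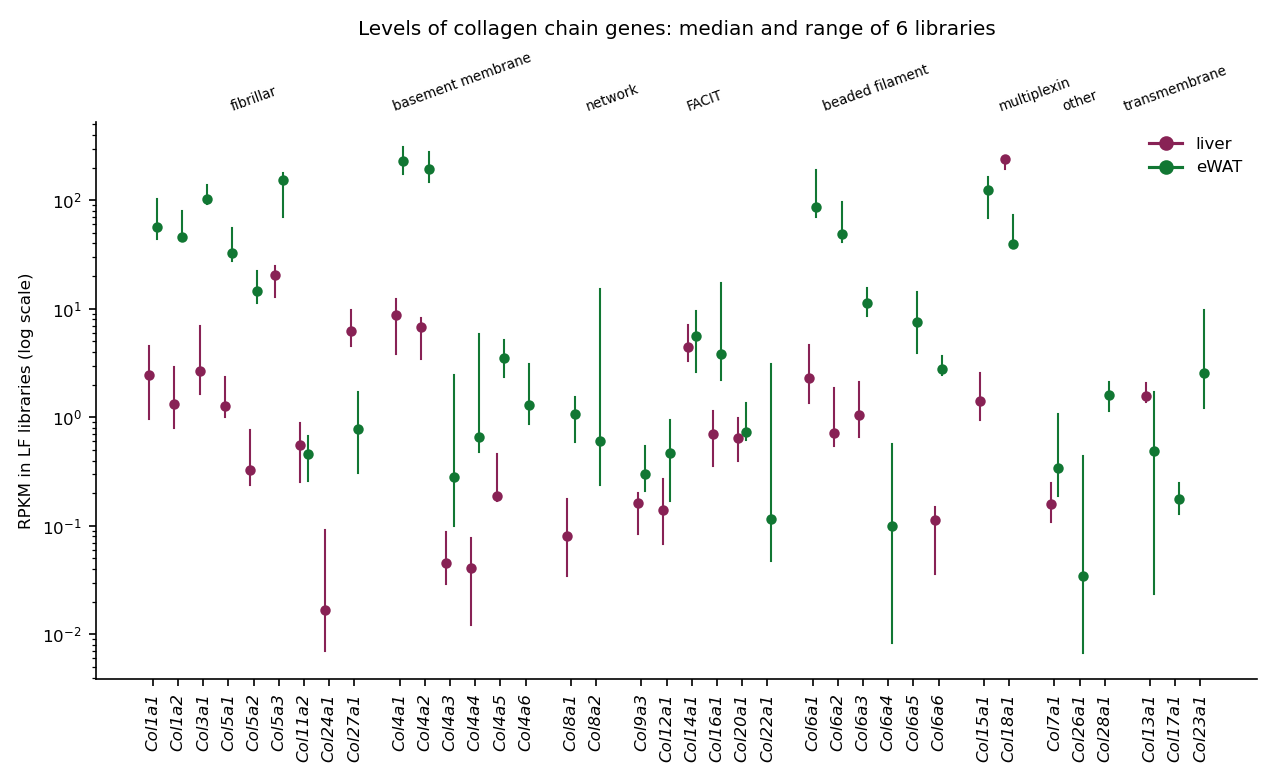
Levels of collagen chain genes in LF libraries, by type, with RPKM on a logarithmic axis. Points are medians and lines the range of 6 libraries, purple for liver and green for eWAT. Of the genes measured in both tissues, 4 have a higher median in liver: Col11a2, Col13a1, Col27a1 and Col18a1, the last at 238 RPKM against 39.6 RPKM in eWAT.

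As shares of all collagen RPKM, fibrillar genes made up 33.7% ± 1.11 (SD, n = 6) and basement membrane genes 36.3% ± 3.23 of the eWAT LF libraries, with 14.5% ± 2.33 for beaded filament and 13.2% ± 2.44 for multiplexin genes. FACIT genes made up 1.26% ± 0.829 and network genes 0.413% ± 0.587. Liver LF libraries were 77.6% ± 4.94 multiplexin, almost all of it Col18a1, and 12.6% ± 3.08 fibrillar. Collagen transcripts took 0.751% to 1.28% of all counts in eWAT LF libraries (median 0.867%) and 0.177% to 0.241% in liver LF libraries (median 0.217%).

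The comparison of HF with LF in eWAT asks how the collagen transcripts of fat differ after 18 weeks on a high-fat diet. Their share of all counts was 1.66% to 2.8% in HF libraries (median 2.09%), above the highest LF library. Of 36 measured genes, 17 rose and 5 fell (edgeR quasi-likelihood test, Benjamini-Hochberg adjusted p under 0.05 over all 16690 genes); of all genes tested, 20.6% rose and 20.2% fell. The median log2 difference of the 36 genes was 0.58, against -0.02 for all genes. CPM of the HF and LF groups did not overlap for 11 of the 36 genes with HF higher (30.6%, against 9.68% of all genes) and for 1 gene with HF lower (2.78%, against 6.67%). By type, 5 of 8 fibrillar, 2 of 6 basement membrane, 1 of 2 network, 3 of 6 FACIT, 3 of 6 beaded filament and 2 of 2 multiplexin genes rose, while the genes that fell were 3 basement membrane chains and 2 of 3 transmembrane collagens.

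**Figure D2:**
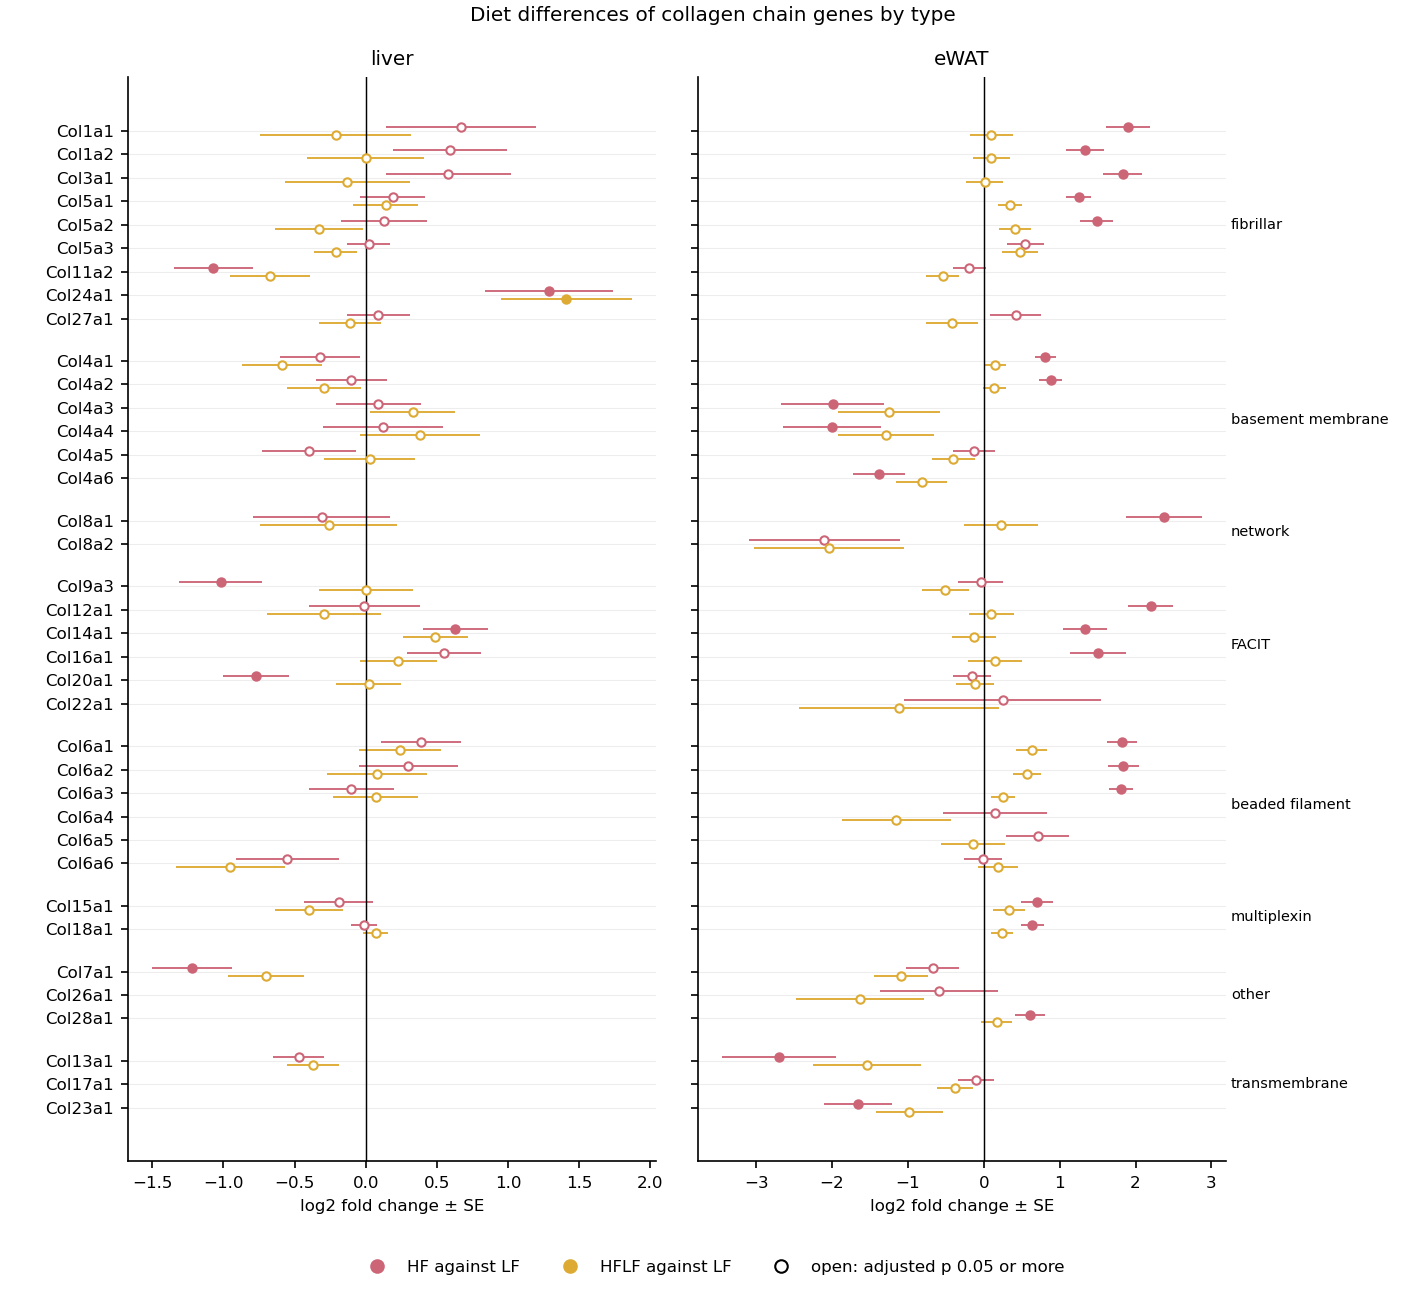
Log2 fold changes of collagen chain genes against LF, with SE, for HF in red and HFLF in yellow, in liver on the left and eWAT on the right. Genes are grouped by type, and filled points passed an adjusted p of 0.05. In eWAT 22 HF points are filled and no HFLF point is.

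Among fibrillar chains, Col1a1, the main chain of type I collagen, was at 44.1, 56.3 and 102 RPKM (lowest, median and highest of 6) in LF, at 105, 188 and 501 RPKM in HF and at 53.9, 64.0 and 87.4 RPKM in HFLF. The HF libraries all lay above both other groups, with library 3 highest and library 5 lowest. Col1a1 rose 3.74-fold (log2 difference 1.90 ± 0.29, SE, adjusted p = 0.000141). Col3a1, the chain of type III collagen, which forms thin fibrils together with type I, was at 93, 103 and 139 RPKM in LF, at 186, 329 and 773 RPKM in HF and at 92.1, 109 and 128 RPKM in HFLF. Again no HF library reached down to the others, and the same HF libraries were highest and lowest. Its log2 difference was 1.83 ± 0.26 (adjusted p = 7.73e-05). Col1a2, the partner of Col1a1, had overlapping groups, at 42 to 79.0 RPKM in LF and 72.0 to 250 RPKM in HF, and rose by a log2 difference of 1.34 ± 0.25 (adjusted p = 0.000502).

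Type V collagen starts fibrils and limits their width. Its chain Col5a1 was at 27.8, 33.0 and 56.1 RPKM in LF, at 79.0, 86.6 and 101 RPKM in HF and at 38.8, 46.0 and 55.8 RPKM in HFLF. HF libraries lay above the rest in a narrow band, unlike those of Col1a1. The log2 difference was 1.25 ± 0.16 (adjusted p = 4.8e-05). Col5a2, its partner, was at 11.3 to 22.1 RPKM in LF and 26.8 to 67.5 RPKM in HF, without overlap, and the log2 difference was 1.49 ± 0.22 (adjusted p = 0.000101). Col5a3, the fibrillar chain with the highest mean in LF, overlapped between diets, at 70.0 to 180 RPKM in LF and 176 to 275 RPKM in HF, with a log2 difference of 0.55 ± 0.24 (adjusted p = 0.0783). It was called by DESeq2 (0.56, adjusted p = 0.0461) and by edgeR without LF library 6 (0.67, adjusted p = 0.0422). Col11a2 (-0.19) and Col27a1 (0.42) did not pass the main edgeR test either, and both were under 2 RPKM in every eWAT library.

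Type VI collagen anchors adipocytes to their surroundings. Its 3 classic chains had the smallest p-values of all 36 genes. Col6a3, whose C-terminal fragment is the adipokine endotrophin, was at 8.66, 11.3 and 15.4 RPKM in LF, at 28.0, 42.5 and 54.3 RPKM in HF and at 11.2, 13.1 and 17.5 RPKM in HFLF. All HF libraries lay above every LF and HFLF library. The log2 difference was 1.81 ± 0.16 (adjusted p = 1.81e-05), or 3.50-fold. Col6a1 was at 70.1, 86.6 and 191 RPKM in LF and at 310, 376 and 400 RPKM in HF, and its log2 difference was 1.82 ± 0.20 (adjusted p = 2.61e-05). Col6a2, the neighbour of Col6a1 on chromosome 10, was at 41.6, 48.7 and 97.0 RPKM in LF and at 173, 213 and 220 RPKM in HF, and its log2 difference was 1.84 ± 0.20 (adjusted p = 2.37e-05). In both chains LF library 5 was the highest LF library and still below every HF library. The other type VI chains, Col6a4 (0.15), Col6a5 (0.71 ± 0.42) and Col6a6 (-0.01), did not pass the test.

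**Figure D3:**
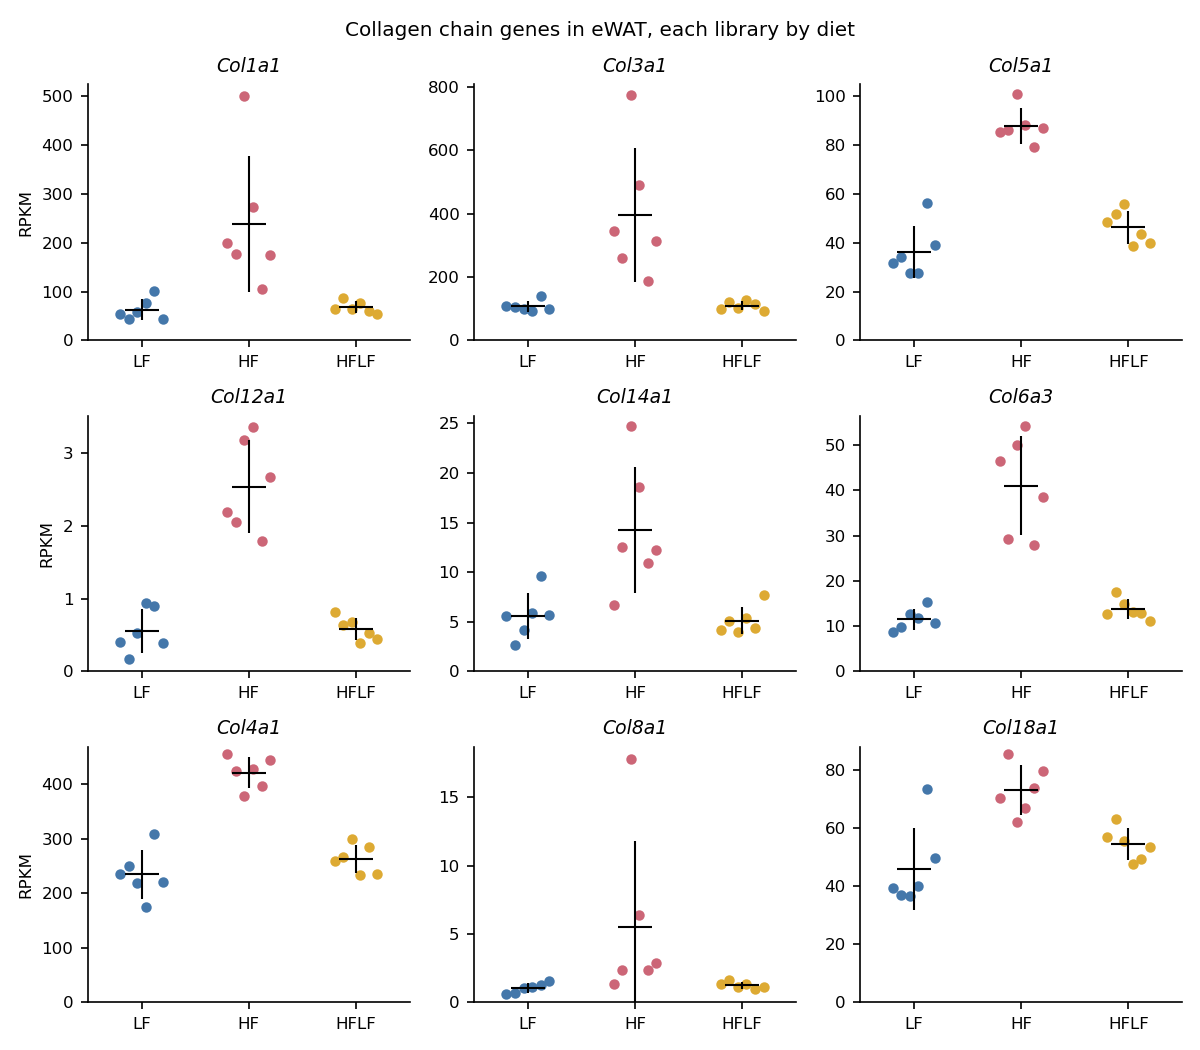
RPKM of 9 collagen chain genes in each eWAT library, by diet, with the mean as a horizontal line and the SD as a vertical line (n = 6 per diet). All HF points lie above all LF and HFLF points for Col1a1, Col3a1, Col5a1, Col12a1, Col6a3 and Col4a1, whereas Col14a1, Col8a1 and Col18a1 overlap; the highest Col8a1 point is 17.8 RPKM in HF library 3.

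FACIT collagens on the surface of fibrils split evenly. Col12a1, which links fibrils to other matrix proteins, was at 0.168, 0.466 and 0.936 RPKM in LF, at 1.79, 2.43 and 3.36 RPKM in HF and at 0.389, 0.584 and 0.815 RPKM in HFLF. HF libraries did not overlap with the others. At a log2 difference of 2.20 ± 0.30 (adjusted p = 7.46e-05), or 4.59-fold, its estimated fold was above that of every fibrillar and type VI chain, from a low level. Col14a1 was at 2.64, 5.63 and 9.61 RPKM in LF and at 6.67, 12.3 and 24.7 RPKM in HF, with overlap, and its log2 difference was 1.33 ± 0.29 (adjusted p = 0.0019). Col16a1 was at 2.22, 3.83 and 17.3 RPKM in LF and at 13.9, 20.4 and 23.5 RPKM in HF. LF libraries 4 and 5, at 17.3 and 12.4 RPKM, made its LF group wide, and the log2 difference of 1.51 ± 0.37 (adjusted p = 0.00383) became 2.61 without the 6 libraries named above; Col12a1 became 2.89. Col9a3 (-0.04), Col20a1 (-0.16) and Col22a1 (0.25 ± 1.30) did not pass the test.

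Basement membrane chains went both ways. Col4a1, which with Col4a2 forms the type IV collagen of nearly all basement membranes, was at 174, 228 and 308 RPKM in LF, at 378, 426 and 455 RPKM in HF and at 234, 264 and 299 RPKM in HFLF. HF libraries lay above all others. The log2 difference was 0.81 ± 0.14 (adjusted p = 0.000262), or 1.75-fold. Col4a2 was at 147 to 279 RPKM in LF and 318 to 431 RPKM in HF, with a log2 difference of 0.88 ± 0.15 (adjusted p = 0.000286). Of the multiplexins, Col15a1 was at 68.8 to 163 RPKM in LF and 175 to 234 RPKM in HF, with a log2 difference of 0.70 ± 0.21 (adjusted p = 0.015), which was 0.43 and not called without the 6 libraries. Col18a1 was at 36.7, 39.6 and 73.3 RPKM in LF and at 62.1, 72.1 and 85.4 RPKM in HF. Only LF library 5 reached into the HF range, and the log2 difference was 0.64 ± 0.15 (adjusted p = 0.0029).

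The minor type IV chains are restricted to special basement membranes, such as those of the kidney and of some epithelia and smooth muscle. Col4a6 was at 0.873, 1.29 and 3.09 RPKM in LF, at 0.326, 0.617 and 0.760 RPKM in HF and at 0.457, 0.794 and 1.88 RPKM in HFLF. All HF libraries lay below all LF libraries, and LF library 3 was the highest. Its log2 difference was -1.38 ± 0.34 (adjusted p = 0.0039), and -0.67 (adjusted p = 0.0219) without the 6 libraries. Col4a3 was at 0.0999, 0.284 and 2.43 RPKM in LF and at 0.0841, 0.134 and 0.348 RPKM in HF. Col4a4 was at 0.477, 0.655 and 5.88 RPKM in LF and at 0.174, 0.400 and 0.766 RPKM in HF. In both, LF libraries 4 and 5 were far above the other LF libraries, which overlapped with HF. The log2 differences were -1.99 ± 0.68 (adjusted p = 0.028) for Col4a3 and -2.0 ± 0.64 (adjusted p = 0.0192) for Col4a4. Without LF library 4 alone they were -1.27 (adjusted p = 0.113) and -1.35 (adjusted p = 0.0731), and without the 6 libraries -0.02 and -0.35, so neither call held. Col4a5 did not pass the test (-0.13 ± 0.28).

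Among the remaining types, the network chain Col8a1, made by vascular and mesenchymal cells, was at 0.598, 1.08 and 1.54 RPKM in LF, at 1.36, 2.63 and 17.8 RPKM in HF and at 0.948, 1.23 and 1.62 RPKM in HFLF. HF library 3 stood far above the others, and the lowest HF library lay within the LF range. The log2 difference was 2.37 ± 0.50 (adjusted p = 0.00142), and 1.53 (adjusted p = 0.00155) without HF library 3. Its partner Col8a2 was at 15.1 and 5.45 RPKM in LF libraries 4 and 5 and at 0.238 to 0.668 RPKM in the other LF libraries, and was not called (-2.10 ± 0.99, adjusted p = 0.0992). DESeq2 did call Col8a2 (log2 difference -2.1, adjusted p = 0.0412). The transmembrane collagen Col13a1, a component of cell adhesion sites, was at 0.0236, 0.488 and 1.70 RPKM in LF and at 0.0181, 0.0723 and 0.212 RPKM in HF, with a log2 difference of -2.70 ± 0.75 (adjusted p = 0.0084). Col23a1 was at 1.22, 2.58 and 9.73 RPKM in LF and at 0.448, 1.21 and 1.51 RPKM in HF, with a log2 difference of -1.66 ± 0.45 (adjusted p = 0.00734). LF library 3 held the highest Col23a1 value, and without it the difference was -0.98 (adjusted p = 0.0244). Neither transmembrane call held without the 6 libraries, at -1.29 for Col13a1 and -0.67 for Col23a1. Col28a1, a collagen known from peripheral nerve, rose by a log2 difference of 0.61 ± 0.20 (adjusted p = 0.0204). Without the 6 libraries, Col27a1 (1.12) and Col26a1 (2.37) joined the genes called higher, and of the genes called lower only Col4a6 remained.

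**Figure D4:**
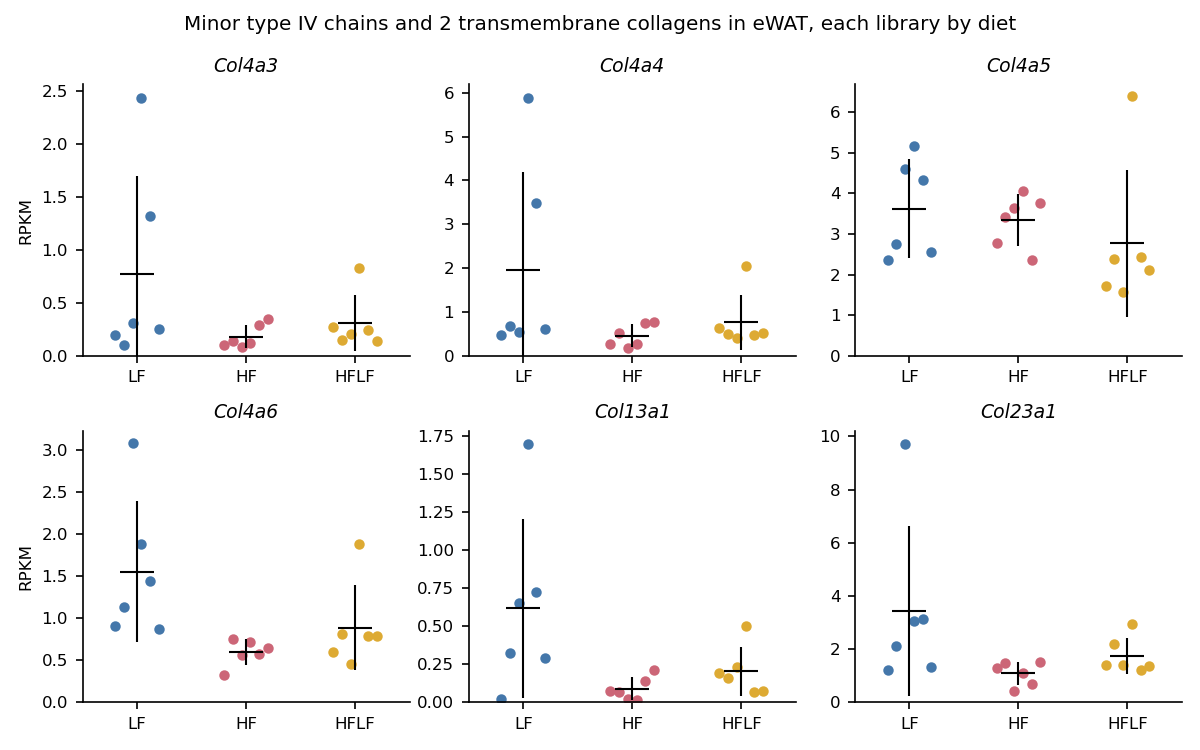
RPKM of the minor type IV chains and of Col13a1 and Col23a1 in each eWAT library, by diet, with the mean as a horizontal line and the SD as a vertical line (n = 6 per diet). The highest Col4a3, Col4a4 and Col13a1 points are LF library 4, the highest Col4a6 and Col23a1 points are LF library 3, and Col4a6 is the gene of these 6 without overlap of LF and HF.

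Markers of some cell types differed between the diets too. All 5 macrophage markers (Adgre1, Cd68, Csf1r, Itgax and Trem2) rose in HF, their summed level being 169 to 278 CPM in LF and 393 to 3280 CPM in HF, and none was at 0. HF library 3, with the highest Col1a1 and Col3a1, also had the highest Adgre1 (594 CPM), and HF library 5, with the lowest of both, had the lowest Adgre1 (65.0 CPM). Library 4 was next after library 3 in fibrillar genes (1260 RPKM) and Adgre1 (458 CPM), but library 6 did not keep this order. Its fibrillar genes summed to 986 RPKM, above libraries 1 (968 RPKM) and 2 (841 RPKM). Adgre1 in libraries 6, 1 and 2 was at 105, 397 and 162 CPM. Basement membrane genes were lowest in library 3, at 700 RPKM. Fibroblast markers summed to 555 to 996 CPM in LF and 838 to 1260 CPM in HF, and 3 of 7 rose. None of 5 endothelial markers passed the test, at sums of 747 to 1050 CPM in LF and 575 to 1350 CPM in HF. Adipocyte markers summed to 18800 to 27000 CPM in LF and 11800 to 27800 CPM in HF, where 1 of 5 rose and 2 fell. Beside the genes that fell, 3 of 4 smooth muscle markers fell, from 162 to 3710 CPM in LF to 151 to 429 CPM in HF. Of 5 bile duct and epithelial markers 3 fell and 1 rose, with sums of 17.4 to 377 CPM in LF and 23.8 to 139 CPM in HF. The part of these cell types in the collagen differences was not tested.

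The mixture of types also differed. Beaded filament genes made up 22.2% ± 1.77 (SD, n = 6) of collagen RPKM in HF, 18.7% to 23.4%, against 11.2% to 17.9% in LF, so these ranges did not overlap. Basement membrane genes made up 28.7% ± 4.93, with every HF library (19.7% to 32.8%) below every LF library (33.1% to 40.3%). Fibrillar genes made up 37.8% ± 8.20 in HF, with 31.1% to 52.9% overlapping the LF range of 31.9% to 34.9%, and FACIT genes 1.34% ± 0.154. These shares are a description with no test.

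The HFLF group asks whether the pattern differs after 9 weeks back on the low-fat diet. Against LF, none of the 36 genes passed the test in eWAT, where 0.563% of all genes did; 8 had an unadjusted p under 0.05, and DESeq2 called 1, Col6a1. The largest differences by p were those of Col6a1 (log2 difference 0.63 ± 0.20, adjusted p = 0.125) and Col6a2 (0.57 ± 0.19, adjusted p = 0.142). Col6a1 was at 119, 162 and 195 RPKM in HFLF, between the LF and HF medians, and Col6a2 at 60.7, 84.2 and 103 RPKM. Without LF library 5 both were called, at 0.88 and 0.77. The collagen share of counts was 0.963% to 1.21% in HFLF (median 1.06%). A p that misses the threshold does not show that the HFLF and LF levels were equal.

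Against HF, 14 of 36 genes fell in HFLF and none rose, where 14.7% of all genes fell and 10.7% rose. They were 5 of 8 fibrillar, 2 of 6 basement membrane, 1 of 2 network, 3 of 6 FACIT and 3 of 6 beaded filament genes, and none of the 2 multiplexins. This comparison shares its HF libraries with the one above, so both values are given side by side without a further test. Col6a3 fell by 1.56 ± 0.16 on the log2 scale (adjusted p = 0.000239), Col12a1 by 2.10 ± 0.30 (adjusted p = 0.000683), Col3a1 by 1.82 ± 0.26 (adjusted p = 0.000579) and Col6a2 by 1.27 ± 0.19 (adjusted p = 0.000809). Col1a1 fell by 1.80 ± 0.29 (adjusted p = 0.00107), Col14a1 by 1.46 ± 0.29 (adjusted p = 0.00296), Col4a1 by 0.65 ± 0.14 (adjusted p = 0.00348) and Col8a1 by 2.13 ± 0.50 (adjusted p = 0.00609). For Col8a1 the value was -1.29 without HF library 3. The multiplexin Col18a1 was at 47.8, 54.5 and 63.0 RPKM in HFLF, and its log2 difference of -0.41 ± 0.15 missed the threshold (adjusted p = 0.0554), whereas it was called by DESeq2 (adjusted p = 0.0215), with only these 2 groups in the fit (adjusted p = 0.0164) and with 3 other settings. CPM of HFLF lay wholly below HF for 11 of the 36 genes (30.6%, against 4.48% of all genes). All 5 macrophage markers fell too, to a sum of 261 to 940 CPM, and their part was not tested. Of the 5 genes that were lower in HF than in LF, none passed the test here: Col4a6 was at a log2 difference of 0.57 ± 0.33 and Col13a1 at 1.16 ± 0.74. Without the 6 libraries, edgeR also called Col4a5 lower in HFLF than in HF (log2 difference -0.73, adjusted p = 0.031).

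In liver, few collagen chain genes differed between diets. For HF against LF, 2 of 28 genes rose and 4 fell (edgeR, adjusted over 14052 genes), where 16.3% of all genes rose and 18.5% fell, and the median log2 difference was 0.0 for the collagen genes and for all genes. Col14a1, a FACIT collagen made by hepatic stellate cells, was at 3.33, 4.48 and 7.08 RPKM in LF, at 4.67, 7.53 and 13.1 RPKM in HF and at 5.44, 7.85 and 9.35 RPKM in HFLF. The groups overlapped, and the log2 difference was 0.63 ± 0.23 (adjusted p = 0.0394). Col24a1, a minor fibrillar chain, had 2, 2, 3, 1, 13 and 3 counts in LF and 13, 9, 8, 17, 4 and 7 counts in HF, with a fitted log2 difference of 1.29 ± 0.45 (adjusted p = 0.034), or 2.12 without LF library 5. Both calls rested on a narrow margin: leaving out 1 library ended that of Col14a1 for 7 of 12 libraries and that of Col24a1 for 7 of 12. The LF median of Col24a1 was 0.129 CPM, under the 0.5 CPM filter, so it was measured mainly through HF and HFLF libraries. The filter therefore favours its call. Hepatic stellate markers summed to 152 to 296 CPM in LF and 230 to 390 CPM in HF, with 3 of 7 called higher and none called lower or at 0. Ecm1 was the largest part of the sum, at means of 114 CPM in LF and 165 CPM in HF. Means of Lrat, Reln, Colec11 and Hgf were also higher in HF. Those of Des (6.77 and 6.53 CPM) and Ngfr (7.22 and 6.9 CPM) were slightly lower. The part of these markers was not tested.

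Those that fell in liver were of low level. Col7a1, the anchoring fibril collagen, was at 0.108, 0.159 and 0.246 RPKM in LF and at 0.0514, 0.0711 and 0.117 RPKM in HF, overlapping narrowly, with a log2 difference of -1.22 ± 0.28 (adjusted p = 0.00339). Col11a2, a minor fibrillar chain, was at 0.255, 0.556 and 0.881 RPKM in LF and at 0.248, 0.302 and 0.362 RPKM in HF, with a log2 difference of -1.07 ± 0.28 (adjusted p = 0.00769). Col9a3 had a log2 difference of -1.02 ± 0.29 (adjusted p = 0.0122) and Col20a1 of -0.77 ± 0.23 (adjusted p = 0.0165). Every liver HF library had at most 0.396 CPM of Col9a3, under the 0.5 CPM filter, so it was measured only through LF and HFLF libraries. The filter therefore favours the Col9a3 call. Col9a3 shares 234 of its 3853 exon bases with Tcfl5 on the other strand, and the sources used here do not say whether strand was used in counting, so reads there may belong to either gene. Without liver LF libraries 1 to 4, those with high Mt2, none of the 6 calls held: Col11a2 was at -0.14 and Col24a1 at 0.30, Col14a1 at 0.50, Col7a1 at -0.99, Col9a3 at -0.89 and Col20a1 at -0.47. That alternative leaves 2 LF libraries.

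The liver chains of highest level, apart from Col14a1, did not pass the test. Col18a1 was at 193, 238 and 254 RPKM in LF, at 224, 245 and 258 RPKM in HF and at 225, 263 and 291 RPKM in HFLF, and its log2 difference of HF against LF was -0.01 ± 0.09 (adjusted p = 0.926). Col1a1 was at 0.955, 2.43 and 4.59 RPKM in LF and at 1.37, 2.48 and 10.6 RPKM in HF, with a log2 difference of 0.67 ± 0.53 (adjusted p = 0.336). HF libraries 1 and 4, at 10.6 and 8.24 RPKM, stood above the other 4, whose highest was 3.14 RPKM. Col5a3 (0.02 ± 0.15), Col27a1 (0.09 ± 0.22), Col4a1 (-0.32 ± 0.28), Col4a2 (-0.10 ± 0.25), Col6a3 (-0.10 ± 0.30) and Col8a1 (-0.31 ± 0.48) were not called. Nor was Col13a1, which DESeq2 called (-0.47, adjusted p = 0.0381), as did edgeR with only the 2 groups in the fit or with replicate number as a block. For HFLF against LF, 1 of 28 genes rose, Col24a1 (1.41 ± 0.46, adjusted p = 0.0335), and none fell, where 10.2% of all genes rose and 12.4% fell. Leaving out 1 library ended this Col24a1 call for 7 of 12 libraries. It was also not called without liver LF libraries 1 to 4 (0.41). The CPM filter favours this call too, as Col24a1 was measured mainly through HF and HFLF libraries. For HFLF against HF no collagen chain gene was called by edgeR, where 5.23% of all genes were; 2 had an unadjusted p under 0.05, and DESeq2 called Col20a1, at 0.231 to 0.517 RPKM in HF and 0.545 to 0.983 RPKM in HFLF.

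The diet differences of both tissues were compared directly by the interaction of tissue and diet in 1 fit of all 36 libraries over 13206 shared genes. The fit treated the libraries as independent, although liver and eWAT libraries of one number may come from the same mouse. For HF against LF, 11 of 27 collagen genes had a more positive difference in eWAT than in liver and 3 a more negative one, where 21.0% and 24.6% of all genes did. Col6a3 had the smallest p, with a log2 difference of 1.81 in eWAT and -0.10 in liver (eWAT minus liver 1.85 ± 0.35, adjusted p = 0.000108). Col12a1 (2.14 ± 0.50, adjusted p = 0.000935), Col6a1 (1.38 ± 0.36, adjusted p = 0.00234) and Col6a2 (1.49 ± 0.41, adjusted p = 0.00394) followed by p. The others were Col8a1, with the largest value of these (2.62, and 1.79 without eWAT HF library 3), Col5a1, Col5a2, Col4a1, Col4a2, Col15a1 and Col18a1. Type I and III chains did not pass this test, Col1a1 at 1.17 ± 0.61 (adjusted p = 0.114) and Col3a1 at 1.20 ± 0.52 (adjusted p = 0.0585), and their liver values varied widely between libraries. Without liver HF library 1, edgeR called Col1a1 (1.62, adjusted p = 0.0256) and Col3a1 (1.54, adjusted p = 0.0139). Col3a1 was also called on leaving out liver LF library 2 or 6, liver HF library 4, or eWAT HF library 2 or 5. The 3 genes with a more negative eWAT difference were Col13a1, Col4a3 and Col4a4, which were not called without those 4 liver and 6 eWAT libraries, where 9 genes were higher and none lower. Col4a1 (0.41), Col4a2 (0.39), Col15a1 (0.34) and Col5a2 (1.24) also lost their calls there, while Col16a1 (2.23) and Col27a1 (1.34) gained one. Leaving out 1 library ended the call of Col4a4 for 10 of 24 libraries, of Col4a3 for 6 and of Col15a1 for 8. Without eWAT LF library 4 the values of Col4a4 and Col4a3 were -1.53 and -1.43. With replicate number within diet as a block, Col4a4, Col4a3 and Col15a1 lost their calls, while Col11a2 and Col16a1 gained one. For HFLF against HF, 7 of 27 genes had a more negative difference in eWAT, where 9.18% of all genes did: Col6a3 (-1.71 ± 0.35, adjusted p = 0.00191), Col12a1 (-1.80 ± 0.51, adjusted p = 0.0145), Col9a3, Col14a1, Col5a1, Col6a1 and Col8a1. The last 3 rested on a narrow margin: leaving out 1 library ended the call of Col5a1 for 14 of 24 libraries, of Col6a1 for 15 and of Col8a1 for 17, and without eWAT HF library 3 the Col8a1 value was -1.33 (adjusted p = 0.142). With the replicate block Col8a1 was not called and Col6a2 was. For Col9a3 all liver HF libraries were under the 0.5 CPM filter, which favours its call.

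Several collagens are built from chains of different genes, so the ratio of partner chains within a library was compared, a measure that does not depend on library size. The ratio of Col1a1 to Col3a1 was included in each tissue, although these are chains of separate collagens, types I and III, found in the same fibrils. Over 9 ratios in eWAT and 6 in liver, 45 tests in all, 5 passed (two-sided exact permutation test with 6 against 6 libraries, Benjamini-Hochberg adjusted over the 45; the smallest p this design allows is 0.00216), all in eWAT. The ratio of Col1a1 to Col1a2 per length was 1.02, 1.25 and 1.29 (lowest, median and highest) in LF, 1.45, 1.71 and 2.0 in HF and 1.01, 1.24 and 1.40 in HFLF. HF libraries lay above both other groups, with log2 differences of 0.54 against LF and -0.50 for HFLF against HF (exact permutation, adjusted p = 0.0195 each). The ratio of Col4a5 to Col4a6 was 1.49, 2.67 and 2.98 in LF, 4.08, 5.71 and 8.52 in HF and 2.67, 3.0 and 3.41 in HFLF, again without overlap, with log2 differences of 1.20 and -0.90 (exact permutation, adjusted p = 0.0195 each). The ratio of Col8a1 to Col8a2 was 0.0731, 1.35 and 4.00 in LF and 4.81, 5.55 and 9.11 in HF, a log2 difference of 2.82 (exact permutation, adjusted p = 0.0195). It was 2.11 without LF library 4, whose Col8a2 was highest. This call ended on leaving out any of 6 of 12 single libraries, whereas no single library ended the other ratio calls. By contrast Col6a1 to Col6a2 stayed between 1.62 and 2.0 in every eWAT library while both chains rose, with a log2 difference of HF against LF of -0.01 (exact permutation, adjusted p = 0.933). Col4a1 to Col4a2 differed by -0.07 (exact permutation, adjusted p = 0.201), with all 18 eWAT ratios between 1.03 and 1.28. Without the 6 eWAT libraries, 3 LF, 5 HF and 4 HFLF libraries are left, and the smallest exact permutation p is 0.0357 for HF against LF and 0.0159 for HFLF against HF before adjustment over the 45 tests, so the test there says nothing about stability. The log2 differences were then 0.63 and -0.42 for Col1a1 to Col1a2, 0.99 and -0.77 for Col4a5 to Col4a6, and 1.36 for Col8a1 to Col8a2.

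**Figure D5:**
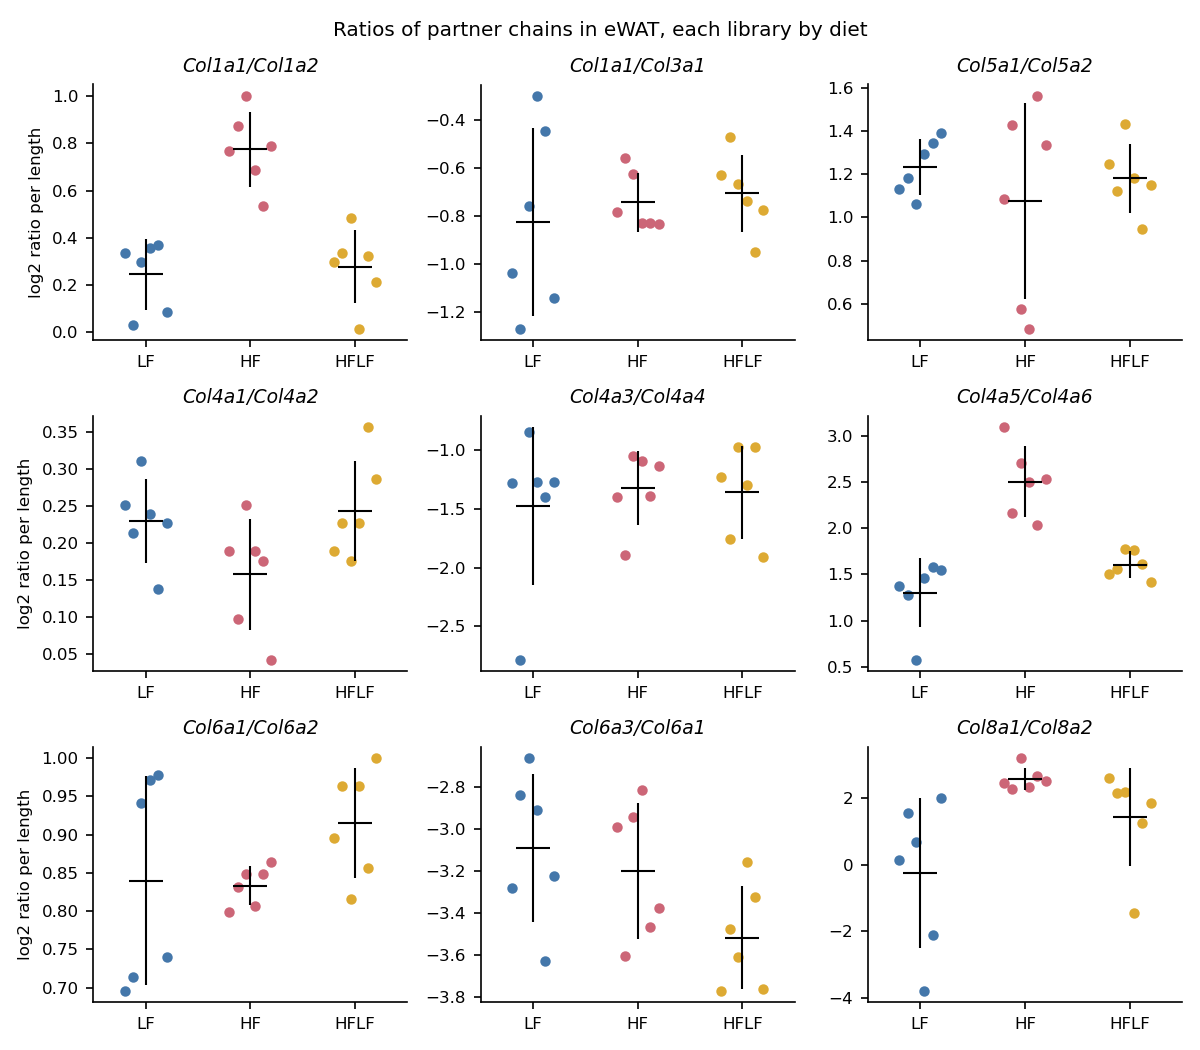
Log2 ratio per length of 9 pairs of chains in each eWAT library, by diet, with the mean as a horizontal line and the SD as a vertical line (n = 6 per diet). All pairs but Col1a1/Col3a1 are partner chains of the same collagen type. HF points lie above all LF points for Col1a1/Col1a2, Col4a5/Col4a6 and Col8a1/Col8a2, and within the LF range for Col6a1/Col6a2.

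The type IV genes lie in head-to-head pairs. Col4a1 and Col4a2 start on opposite strands with 22 exon bases shared, the annotated starts of Col4a4 and Col4a3 are 71 bases apart, and those of Col4a6 and Col4a5 are 1308 bases apart (GRCm38.p6). The whole stretch between Col4a4 and Col4a3, whose ratio did not pass the test (log2 difference 0.15, exact permutation, adjusted p = 0.861), is shown next, followed by the 250 bases before the start of Col4a6, the gene of the third pair that fell while Col4a5 was not called. The other lines show the 250 bases before Col3a1 and Col8a1, a fibrillar and a network gene that rose in HF. Capitals mark a match to GGGCGG or its reverse complement CCGCCC (the GC box) or to TATAAA (the TATA box).
Col4a4 to Col4a3: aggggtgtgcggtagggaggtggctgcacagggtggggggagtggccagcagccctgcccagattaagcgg
Col4a6: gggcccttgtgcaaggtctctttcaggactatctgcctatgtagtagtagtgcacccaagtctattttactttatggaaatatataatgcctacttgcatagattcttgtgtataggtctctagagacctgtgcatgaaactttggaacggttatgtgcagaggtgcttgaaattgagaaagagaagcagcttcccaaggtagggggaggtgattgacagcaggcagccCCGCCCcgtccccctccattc
Col3a1: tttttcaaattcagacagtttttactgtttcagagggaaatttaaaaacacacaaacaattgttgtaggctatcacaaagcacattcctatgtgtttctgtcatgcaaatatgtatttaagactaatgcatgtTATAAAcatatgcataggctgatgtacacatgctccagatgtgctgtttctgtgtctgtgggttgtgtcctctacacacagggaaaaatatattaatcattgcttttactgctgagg
Col8a1: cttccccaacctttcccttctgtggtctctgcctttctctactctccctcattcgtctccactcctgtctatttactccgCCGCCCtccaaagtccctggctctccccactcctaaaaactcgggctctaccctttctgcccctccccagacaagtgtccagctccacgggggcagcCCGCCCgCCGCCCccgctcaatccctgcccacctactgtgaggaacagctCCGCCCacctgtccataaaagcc
The first lies at chr1:82586850-82586920 on the minus strand and is 69.0% G and C. Col4a6 is read at chrX:141474077-141474326 on the minus strand, Col3a1 at chr1:45311288-45311537 on the plus strand and Col8a1 at chr16:57754738-57754987 on the minus strand, and no exon lies in any of the 4. Col3a1 has a G and C content of 35.2%, against a median of 52.4% over all promoters, and a TATAAA that starts 117 bases before its annotated start. Col8a1 has 4 GC box matches. The 250 bases before the start were in RefSeq's GRCm38.p6 promoter table for 35 of the 44 genes, as 38 windows. A GC box on either strand was in 57.9% of the 38, against 32.7% of 32851 windows of all genes. For CCAAT on either strand it was 34.2% against 33.8%, and for TATAAA on either strand 13.2% against 12.4%. A match describes these letters and says nothing of binding.

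Genes that act on collagen were counted from lists of the collagen pathway. These counts stand beside 20.6% of all genes that rose and 20.2% that fell in eWAT HF against LF, 14.7% that fell and 10.7% that rose in eWAT HFLF against HF, and 16.3% that rose and 18.5% that fell in liver HF against LF. Of 20 measured genes for collagen folding and modification, 11 rose and 1 fell in eWAT HF against LF. Colgalt1, which adds galactose to collagen hydroxylysine, rose by a log2 difference of 1.24 ± 0.14 (adjusted p = 3.05e-05), Plod1, a lysyl hydroxylase, by 0.72 ± 0.08 (adjusted p = 2.72e-05) and P3h1, a prolyl 3-hydroxylase, by 0.86 ± 0.11 (adjusted p = 5.16e-05). Mia2, part of the machinery that loads collagen for export, fell by 0.19 ± 0.06 on the log2 scale (adjusted p = 0.0133). Of 8 genes for procollagen cleavage 5 rose, among them Bmp1 (0.79 ± 0.10), which removes the C-propeptide, and its enhancers Pcolce (1.33 ± 0.21) and Pcolce2 (2.05 ± 0.27). Of 9 receptor and uptake genes 5 rose, among them Mrc2 (3.07 ± 0.38), an endocytic collagen receptor, and Lair1 (3.66 ± 0.59), a collagen receptor of immune cells. Of 8 fibril partners 6 rose, among them the proteoglycans Lum (1.97 ± 0.32) and Bgn (1.40 ± 0.23). Of 16 basement membrane partners 6 rose, such as Hspg2 (1.07 ± 0.16), and 4 fell, such as Lama1 (-3.86 ± 0.67). In eWAT no gene of these 5 lists was called for HFLF against LF, and for HFLF against HF 11, 6, 3, 5 and 3 genes fell in the same order of lists, with 3 basement membrane partners higher. In liver HF against LF, 1 folding gene rose and 5 of 20 fell, close to the share of all genes, such as P4ha1 (-1.07 ± 0.19, adjusted p = 0.000809), 0 of 5 cleavage genes were called and 1 of 8 fibril partners rose, Thbs2.

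The microRNAs of the miR-29 family are known to bind transcripts of many collagen chains through their seed, bases 2 to 8, shown in capitals and the same in all 3 members (RefSeq, GRCm38.p6).
miR-29a-3p: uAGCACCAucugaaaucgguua
miR-29b-3p: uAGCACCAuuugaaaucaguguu
miR-29c-3p: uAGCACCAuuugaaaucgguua
The reverse complement of the seed, TGGTGCT, was in the annotated 3′ UTR of 24 of the 43 collagen chain genes that have one (55.8%), against 2531 of 20728 protein-coding genes (12.2%). Within the first 1000 bases of UTRs at least that long it was in 11 of 21 (52.4%) against 932 of 9271 (10.1%), so the contrast was also there at equal length. The let-7 seed match, CTACCTC, was in 8 of 43 (18.6%) against 8.15%, and within the first 1000 bases in 5 of 21 (23.8%) against 6.51%. Sites of 24 bases are shown for 6 chains of 4 types that rose in eWAT HF, with the seed match in capitals.
Col1a1: gggaaggaatttcTGGTGCTatag
Col3a1: caaaatgtctcaaTGGTGCTataa
Col4a1: caccgtcacaacaTGGTGCTactc
Col6a2: tccatcccatctgTGGTGCTaata
Col6a3: tgacctgtcaataTGGTGCTaaat
Col8a1: gtatattctaccaTGGTGCTaata
These matches begin 919, 235, 33, 36, 174 and 2199 bases after the stop codon, in the order shown, and Col5a1 has 4 matches. Among measured collagen chain genes in eWAT HF against LF, 11 of 20 with a TGGTGCT match rose and 3 fell (median log2 difference 0.76). Of those without one, 6 of 15 rose and 2 fell (median 0.15), where 20.6% of all genes rose and 20.2% fell. For HFLF against HF, 10 of 20 with a match fell (median -0.86) and 4 of 15 without (median -0.44), where 14.7% of all genes fell. The let-7 match gave a split in the same direction. In HF against LF, 4 of 7 genes with it rose and 1 fell (median 1.34). Without it, 13 of 28 rose and 4 fell (median 0.58). In HFLF against HF, 4 of 7 with it fell (median -1.08) and 10 of 28 without (median -0.45). These splits are a description with no test, and no microRNA was measured in these libraries. They use whole UTRs of unequal length. All genes with a match were not split in the same way, so the splits do not show a trait of collagen chain genes.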

How the data were processed

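Liver and eWAT RNA was extracted with TRI reagent and sequenced on a NovaSeq 6000, per the labels' protocols. The authors aligned reads with STAR to GRCm38.p6, per the submitters' processing notes; the counter, its strand setting and the annotation remain not given in the sources used here. The deposited tables hold raw counts per gene, 14052 in liver and 16690 in eWAT. Gene IDs were matched without their version to GENCODE M21 (14034 and 16668 matched). The deposited RPKM tables were not used. CPM and RPKM were computed here from column totals and the union of annotated exons. Counts were tested with edgeR 4.0.16 in R 4.3.3 (TMM factors, robust quasi-likelihood fit, 3 diets in 1 fit per tissue, Benjamini-Hochberg over all genes, adjusted p under 0.05), and tested on simulated data. Tissue differences came from 1 fit of 36 libraries; fold changes are TMM-scaled. Chain ratios used genes with a mean of at least 1 CPM and exact permutation tests in scipy 1.17.1. DESeq2 1.42.0 was an alternative. All collagen chain genes were counted; those given in full were up to 4 higher and 4 lower genes per comparison with the smallest p, and 1 gene per type. The members and gene lists were chosen with earlier results of these data known.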

Additional observations from a re-analysis of the deposited data

Results flagged for a closer look

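Of 99 groups of 6 libraries examined, 14 had a library far from the other 5; chance gives about 1 in 20, or 4.95. In eWAT LF library 5 this was so for Col3a1 (139 RPKM, next 110), Col5a2 (22.1, next 15.1), Col6a1 (191, next 101), Col6a2 (97.0, next 60.4) and Col18a1 (73.3, next 49.7). In eWAT HFLF library 4 it was so for Col4a3 (0.833 RPKM, next 0.269), Col4a4 (2.05, next 0.632), Col4a6 (1.88, next 0.813) and Col13a1 (0.504, next 0.231); that library also had 31.9 CPM of Epcam. The others were Col8a1 in eWAT HF library 3 (17.8 RPKM, next 6.37), Col14a1 in eWAT HFLF library 6 (7.69, next 5.36), Col23a1 in eWAT LF library 3 (9.73, next 3.12), Col24a1 in liver LF library 5 (0.0906, next 0.0215) and Col9a3 in liver HF library 5, which was low (0.0223, next 0.0803).

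The diet difference differed between tissues by the interaction test for 14 genes in HF against LF. As eWAT minus liver on the log2 scale, the fibrillar chains were Col5a1 (1.00) and Col5a2 (1.30), the basement membrane chains Col4a1 (1.07), Col4a2 (0.92), Col4a3 (-2.16) and Col4a4 (-2.21), and the type VI chains Col6a1 (1.38), Col6a2 (1.49) and Col6a3 (1.85). The rest were Col8a1 (2.62), Col12a1 (2.14), Col13a1 (-2.31), Col15a1 (0.84) and Col18a1 (0.60). For HFLF against HF they were Col5a1 (-0.83), Col6a1 (-1.02), Col6a3 (-1.71), Col8a1 (-2.16), Col9a3 (-1.47), Col12a1 (-1.80) and Col14a1 (-1.31). The calls of Col5a1, Col6a1 and Col8a1 ended on leaving out any of 14, 15 and 17 of 24 single libraries, and Col8a1 was at -1.33 (adjusted p = 0.142) without eWAT HF library 3. For Col9a3 the log2 difference was 1.02 in liver and -0.47 in eWAT, neither called on its own, so the liver part is the larger. All liver HF libraries were under the 0.5 CPM filter for Col9a3, so the filter favours this difference.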

How the results depend on the processing

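In eWAT, all 14 collagen genes lower in HFLF than in HF and 17 of the 22 that differed between HF and LF kept their call under every alternative run; Col4a3, Col4a4, Col13a1, Col15a1 and Col23a1 lost it in at least 1. Of the tissue differences, 7 of 14 for HF against LF and 4 of 7 for HFLF against HF kept their call in all; Col8a1, Col6a1 and Col5a1 in the latter lost it in 20, 16 and 15 of 28. None of the 6 liver calls for HF against LF and not the 1 for HFLF against LF held in all. Causes were not tested.

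Without liver LF libraries 1 to 4 (which leaves 2 LF libraries), HF against LF had 297 genes and 0 collagen genes called, and HFLF against LF 26 and 0. Without libraries 1 and 2 alone, chosen after seeing the data, these were 2742 and 3, and 1396 and 0. With genes of at least 5 CPM only, collagen calls in liver were 1 and 0. Liver means of Col7a1, Col9a3, Col11a2, Col20a1 and Col24a1 were under 5 CPM, so this filter removed them before testing and says nothing about their calls. With only the 2 groups in the fit, liver HFLF against LF had 0 collagen calls, liver HFLF against HF 1181 genes and 1 collagen call, and eWAT HFLF against LF 50 genes. DESeq2 gave 1312 genes and 1 collagen gene for liver HFLF against HF, and 704 and 1 for eWAT HFLF against LF. Without the 6 eWAT libraries, HFLF against LF had 6 genes, HFLF against HF 1390 genes, and the chain ratios 0 calls, where the smallest p left (0.0357 and 0.0159) is too large to judge them: the log2 differences were 0.63 and -0.42 (Col1a1/Col1a2), 0.99 and -0.77 (Col4a5/Col4a6) and 1.36 (Col8a1/Col8a2). Without these and the 4 liver libraries, the tissue difference of HF against LF had 2502 genes and 9 collagen calls, that of HFLF against HF 4 collagen calls, and the Col4a3 tissue difference changed sign to 0.46. A filter by filterByExpr removed no gene. Upper-quartile factors moved the split of all calls to 2952 higher and 1869 lower in liver HF against LF, 1866 and 1158 in liver HFLF against LF, and 2352 and 2033 in eWAT HFLF against HF.

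With the replicate number as a block, 17 collagen genes were higher and 4 lower in eWAT HF against LF, Col4a3 being lost (-1.35, adjusted p = 0.0802), liver HFLF against LF had 2 collagen calls, liver HFLF against HF 444 genes and eWAT HFLF against LF 15 genes. With replicate number within diet as a block, the tissue differences of Col4a4 (adjusted p = 0.0539), Col4a3 (0.0789) and Col15a1 (0.0844) for HF against LF and of Col8a1 (0.136) for HFLF against HF were not called, while Col11a2, Col16a1 and, for HFLF against HF, Col6a2 were. Between diets a library correlated best with its own number in 0 to 2 of 6 cases, so no pairing was shown there. Between tissues this was so in 5 of 6 cases for LF (r 0.043 to 0.155), 2 for HF and 1 for HFLF, with not every r over 0.1. Liver and eWAT libraries of one number may therefore share a mouse, at least in LF, which the main tissue fit did not take into account.

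Leaving out each library in turn gave 3786 to 5473 genes and 4 to 8 collagen genes in liver HF against LF, 2130 to 3918 and 0 to 3 in HFLF against LF, and 215 to 1036 and 0 to 1 in HFLF against HF. In eWAT it gave 5845 to 7113 and 20 to 23, 0 to 341 and 0 to 2, and 3075 to 5314 and 14 to 17 in the same order. Tissue differences gave 5551 to 6283 and 11 to 16 for HF against LF, 1660 to 3205 and 4 to 9 for HFLF against HF, and the chain ratios 4 to 6 calls. The lowest chains rest on few reads: liver Col24a1 had 1 to 17 counts per library.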

Other observations

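Col22a1, a collagen known from the junction of muscle and tendon, was in no comparison called and lay in single eWAT libraries. It was at 4.02 RPKM in HF library 1, 3.09 RPKM in LF library 4 and 1.19 RPKM in HFLF library 6, and at 0.0122 to 0.467 RPKM in the other 15 eWAT libraries. Col8a2, Col4a3, Col4a4 and Col13a1 were highest in LF library 4 and, in HFLF, in library 4, the eWAT libraries with the most Epcam of their groups.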
